A study of Mus musculus with 12 samples.

Results

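The 10 genes described here are the VEGF-A ligand, its receptors, the TIE receptors and a set of endothelial genes, namely Vegfa, Kdr, Flt1, Tek, Tie1, Cdh5, Cldn5, Plvap, Emcn and Ehd3. They were picked by gene symbol from the 32692 gene rows of the deposited tables, each symbol matching 1 row. No measured value entered that rule, but the genes were chosen with earlier results of these data known. They were followed in whole kidneys of untreated wild-type (WT) mice (Mus musculus) between the day 0 and day 8 age labels, in a series whose title concerns 2 microRNAs and the mineralocorticoid receptor in the newborn kidney. RNA-seq of total RNA depleted of ribosomal RNA covered 6 libraries at day 0 and 5 at day 8, and 1 further day 8 sample was not analysed here. Sex, litter and batch are not labelled, nor is it said that each library came from its own animal, so a p-value here covers library-to-library spread alone.

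VEGF-A is secreted mainly by epithelial cells of the kidney, podocytes among them, and acts on neighbouring endothelial cells through the receptor tyrosine kinases encoded by Kdr and Flt1. The angiopoietins act on the same cells through the receptor encoded by Tek, with which the receptor encoded by Tie1 associates. Kidney endothelium is heterogeneous: glomerular and peritubular capillaries are fenestrated, arterial vessels carry tighter junctions, and nephrons and vessels of the mouse kidney are still forming in the first days after birth.

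At day 8, 9 of the 10 genes were higher than at day 0 and 1, the tight-junction gene Cldn5, was lower. The rises ran from 1.16-fold for Cdh5 to 1.79-fold for Plvap, and Cldn5 fell by 0.63 on the log2 scale, which is 1.55-fold. All 10 passed edgeR's quasi-likelihood test at a Benjamini-Hochberg adjusted p of 0.05 over 18763 tested genes. Age separated a large share of the transcriptome: 57.6% of tested genes passed the same test, 27.5% as higher at day 8 and 30.1% as lower. The median log2 fold change of the 10 genes was 0.38, beside -0.01 over all tested genes. In 7 of the 9 genes that rose every day 8 library lay above every day 0 library, as was the case for 19.1% of tested genes, and in Cldn5 every day 8 library lay below, as for 21.4%. In bulk tissue a change in the share of endothelial cells and a change in RNA per endothelial cell cannot be told apart.

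Library totals ran from 18222170 to 24428652 estimated counts, and the 10 genes drew between 541 and 5408 counts each per library. Podocyte markers, which mark the labelled tissue, summed to between 1109 and 1223 CPM (counts per 1000000, with library sizes scaled by edgeR's TMM factors) at day 0 and between 1118 and 1202 CPM at day 8. Transcripts of fat (7 genes, brown-fat Ucp1 among them) summed to between 9.26 and 12.5 CPM at day 0 and to 17.0, 17.0, 99.6, 68.9 and 49.1 CPM in day 8 libraries 1 to 5. Liver transcripts (6 genes) summed to between 150 and 249 CPM in day 0 libraries 1 to 3, to between 5.14 and 9.70 CPM in day 0 libraries 4 to 6, and to 83.1 CPM at most at day 8. Skeletal muscle transcripts (6 genes) summed to between 2.08 and 23.0 CPM at day 0 and to between 0.44 and 0.91 CPM at day 8, where Myh8 was at 0. With day 8 libraries 3 to 5 left out, all 10 genes kept their direction and their call, and the log2 fold changes of Plvap and Cldn5 were 0.80 and -0.60.

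**Figure D1:**
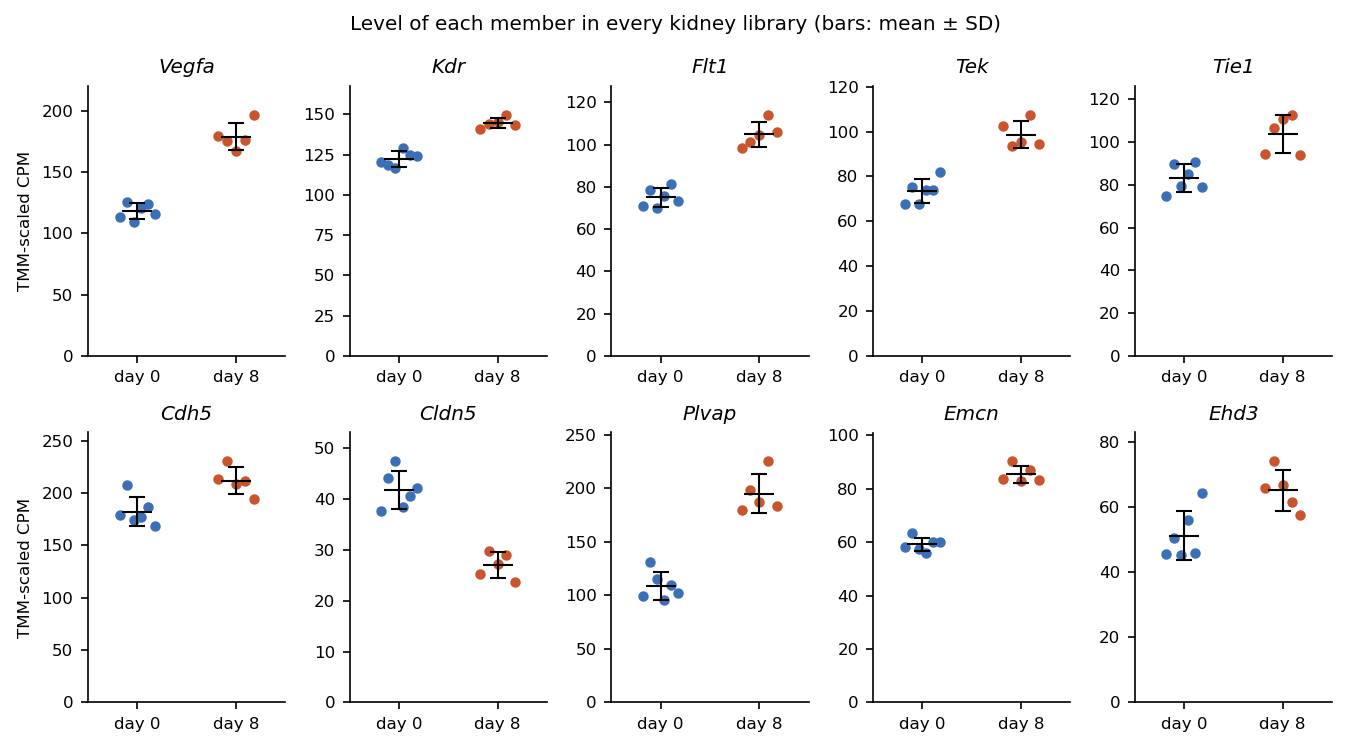
TMM-scaled CPM (vertical axes from 0) of the 10 genes in each of the 6 day 0 libraries (blue) and 5 day 8 libraries (orange), with the mean and SD of each age in black. The ages do not overlap in 8 genes, with Cldn5 alone lower at day 8, while Cdh5 and Ehd3 each have 1 day 0 library within the day 8 range.

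Vegfa, the ligand, rose by more than any of the 10 genes except Plvap. It stood at 109, 118 and 126 CPM in the lowest, median and highest day 0 libraries and at 179, 176, 167, 176 and 197 CPM in day 8 libraries 1 to 5. The ages were far apart, with the lowest day 8 library well above the highest day 0 library. The mean went from 118 ± 6.47 (SD, n = 6) to 179 ± 10.9 CPM (SD, n = 5), a log2 fold change of 0.60 with an SE of 0.05 (edgeR adjusted p = 3.6e-08). That fold change lay above those of 88.3% of tested genes. Vegfa lies at chr17:46016993-46032369 on the minus strand in GENCODE vM21 (GRCm38, the assembly that mm10 denotes). The 250 bases before its first RefSeq start in GRCm38.p6 (chr17:46032378-46032627, minus strand) are shown because no annotated exon overlaps them, read 5′ to 3′ along the gene's strand, with the letters GGAA or TTCC, the core bound by ETS-family factors on either strand, in capitals.
Vegfa: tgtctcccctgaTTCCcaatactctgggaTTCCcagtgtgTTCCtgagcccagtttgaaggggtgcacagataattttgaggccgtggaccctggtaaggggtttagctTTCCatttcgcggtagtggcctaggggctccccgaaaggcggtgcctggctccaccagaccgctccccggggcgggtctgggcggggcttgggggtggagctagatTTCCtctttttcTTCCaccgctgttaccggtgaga

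Both VEGF receptor genes rose, Flt1 by more than Kdr. Kdr, which encodes VEGFR2, the main signalling receptor for VEGF-A, stood at 116, 122 and 129 CPM in the lowest, median and highest day 0 libraries and at 141, 144, 145, 150 and 143 CPM in day 8 libraries 1 to 5. The ages did not overlap, and the day 8 libraries were close to each other. Its mean went from 122 ± 4.69 (SD, n = 6) to 145 ± 3.17 CPM (SD, n = 5), a log2 fold change of 0.24 with an SE of 0.04 (edgeR adjusted p = 3.1e-05). Flt1 encodes VEGFR1, which binds VEGF-A tightly and is also made as a soluble decoy; the deposited values are per gene and do not separate the forms. It stood at 70.0, 74.6 and 81.6 CPM in the lowest, median and highest day 0 libraries and at 98.4, 101, 105, 114 and 106 CPM in day 8 libraries 1 to 5. All day 8 libraries were above all day 0 libraries. Averaged over libraries, it rose from 75.1 ± 4.50 (SD, n = 6) to 105 ± 5.91 CPM (SD, n = 5), a log2 fold change of 0.48 with an SE of 0.05 (edgeR adjusted p = 5.24e-07). Within a library, the log2 ratio of Flt1 to Kdr was higher at day 8 by 0.24 with an SE of 0.04 (exact two-sided permutation test over libraries, adjusted p = 0.00794 over 11 ratios), with no overlap between the ages. Kdr lies at chr5:75932827-75978458 and Flt1 at chr5:147561604-147726011, both on the minus strand. The 250 bases before the RefSeq start of Flt1 (chr5:147726012-147726261, minus strand) have a GC content of 70.4%, beside a median of 52.4% over all 32851 promoter windows of the table, and are shown with the same letters in capitals.
Flt1: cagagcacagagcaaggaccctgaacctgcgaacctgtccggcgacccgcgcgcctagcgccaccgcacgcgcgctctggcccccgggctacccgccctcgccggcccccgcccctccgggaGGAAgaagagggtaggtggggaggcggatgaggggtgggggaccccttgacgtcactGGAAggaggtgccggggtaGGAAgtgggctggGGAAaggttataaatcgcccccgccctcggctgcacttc

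Both TIE receptor genes rose. Tek, which encodes the angiopoietin receptor TIE2, stood at 67.7, 74.0 and 82.1 CPM in the lowest, median and highest day 0 libraries and at 103, 93.5, 95.2, 107 and 94.3 CPM in day 8 libraries 1 to 5. No library of one age fell in the range of the other. In means, it moved from 73.5 ± 5.35 (SD, n = 6) to 98.6 ± 6.10 CPM (SD, n = 5), a log2 fold change of 0.42 with an SE of 0.05 (edgeR adjusted p = 6.57e-06). Tie1, which encodes the partner receptor of TIE2, stood at 75.0, 82.4 and 90.7 CPM in the lowest, median and highest day 0 libraries and at 94.5, 107, 111, 113 and 94.0 CPM in day 8 libraries 1 to 5. Its ages did not overlap either, though day 8 libraries 1 and 5 were only just above the highest day 0 library. The mean went from 83.2 ± 6.40 (SD, n = 6) to 104 ± 8.96 CPM (SD, n = 5), a log2 fold change of 0.32 with an SE of 0.06 (edgeR adjusted p = 0.000392). The ratio of Tie1 to Tek differed between the ages by -0.11 on the log2 scale with an SE of 0.08, a difference that did not pass (exact permutation test, adjusted p = 0.254). Tek lies at chr4:94739289-94874976 on the plus strand and Tie1 at chr4:118471191-118490061 on the minus strand. The 250 bases before the RefSeq start of Tek (chr4:94739039-94739288, plus strand) hold 2 of the ETS cores and 2 CpG dinucleotides.
Tek: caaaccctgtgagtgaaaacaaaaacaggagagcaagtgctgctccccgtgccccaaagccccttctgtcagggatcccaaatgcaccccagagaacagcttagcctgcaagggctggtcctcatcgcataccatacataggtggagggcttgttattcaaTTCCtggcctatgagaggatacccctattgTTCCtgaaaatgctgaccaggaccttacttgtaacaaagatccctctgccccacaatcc

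The junction genes moved in opposite directions. Cdh5 encodes VE-cadherin, the adherens-junction cadherin of all endothelium, and served as the reference in the ratios because it is expressed across vascular beds. It stood at 168, 178 and 207 CPM in the lowest, median and highest day 0 libraries and at 213, 230, 209, 212 and 194 CPM in day 8 libraries 1 to 5. The ages overlapped, since day 8 library 5 lay below day 0 library 2, and the other 4 day 8 libraries lay above every day 0 library. Averaged over libraries, it rose from 182 ± 13.8 (SD, n = 6) to 212 ± 12.9 CPM (SD, n = 5), a log2 fold change of 0.22 with an SE of 0.05 (edgeR adjusted p = 0.00276). Cldn5 encodes claudin-5, a tight-junction protein of endothelium that is known to be most prominent in vessels with a tight barrier. It stood at 37.7, 41.4 and 47.4 CPM in the lowest, median and highest day 0 libraries and at 25.3, 29.7, 27.3, 29.0 and 23.8 CPM in day 8 libraries 1 to 5. Every day 8 library was below every day 0 library by a wide gap. In means, it moved from 41.8 ± 3.66 (SD, n = 6) to 27.0 ± 2.48 CPM (SD, n = 5), a log2 fold change of -0.63 with an SE of 0.07 (edgeR adjusted p = 1.96e-06). Only 12.2% of tested genes had a lower fold change than Cldn5. Cdh5 lies at chr8:104101625-104144511 and Cldn5 at chr16:18776847-18778262, both on the plus strand; Gm29682 overlaps Cdh5 on the opposite strand without sharing exonic bases. The 250 bases before the RefSeq start of Cldn5 (chr16:18776597-18776846, plus strand) are shown because it is the gene that fell, and they hold no ETS core in either orientation, hence no capitals.
Cldn5: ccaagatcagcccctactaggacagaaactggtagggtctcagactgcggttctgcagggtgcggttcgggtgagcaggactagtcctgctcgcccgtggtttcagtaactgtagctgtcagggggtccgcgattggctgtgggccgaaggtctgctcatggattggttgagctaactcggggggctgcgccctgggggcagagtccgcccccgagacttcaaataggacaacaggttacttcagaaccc

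The largest rise was that of Plvap, which encodes the protein of the diaphragms that span endothelial fenestrae and caveolae. Plvap stood at 96.0, 106 and 131 CPM in the lowest, median and highest day 0 libraries and at 180, 199, 188, 225 and 184 CPM in day 8 libraries 1 to 5. The ages were clearly separate, and day 8 library 4 was the highest. The mean went from 109 ± 12.9 (SD, n = 6) to 195 ± 18.4 CPM (SD, n = 5), a log2 fold change of 0.84 with an SE of 0.08 (edgeR adjusted p = 9.3e-07), above those of 93.1% of tested genes. Emcn encodes endomucin, a sialomucin on the surface of capillary and venous endothelium. It stood at 56.1, 59.0 and 63.3 CPM in the lowest, median and highest day 0 libraries and at 83.6, 90.3, 83.1, 86.9 and 83.2 CPM in day 8 libraries 1 to 5. The ages were again separate, with little spread within either. Averaged over libraries, it rose from 59.2 ± 2.55 (SD, n = 6) to 85.4 ± 3.14 CPM (SD, n = 5), a log2 fold change of 0.53 with an SE of 0.04 (edgeR adjusted p = 2.59e-08). Plvap lies at chr8:71497765-71511752 on the minus strand, overlapped by Gtpbp3 on the opposite strand without shared exonic bases, and Emcn at chr3:137341067-137432185 on the plus strand.

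Ehd3, an endocytic-recycling gene known in the mouse kidney as a marker of glomerular endothelium, had the widest relative spread at day 0. It stood at 45.6, 50.6, 45.3, 56.1, 45.9 and 64.4 CPM in day 0 libraries 1 to 6 and at 65.8, 74.1, 66.8, 61.7 and 57.5 CPM in day 8 libraries 1 to 5. The ages overlapped through day 0 library 6, and 3 of the 5 day 8 libraries lay above every day 0 library. In means, it moved from 51.3 ± 7.64 (SD, n = 6) to 65.2 ± 6.20 CPM (SD, n = 5), a log2 fold change of 0.34 with an SE of 0.09 (edgeR adjusted p = 0.00684). Ehd3 lies at chr17:73804134-73832094 on the plus strand.

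**Figure D2:**
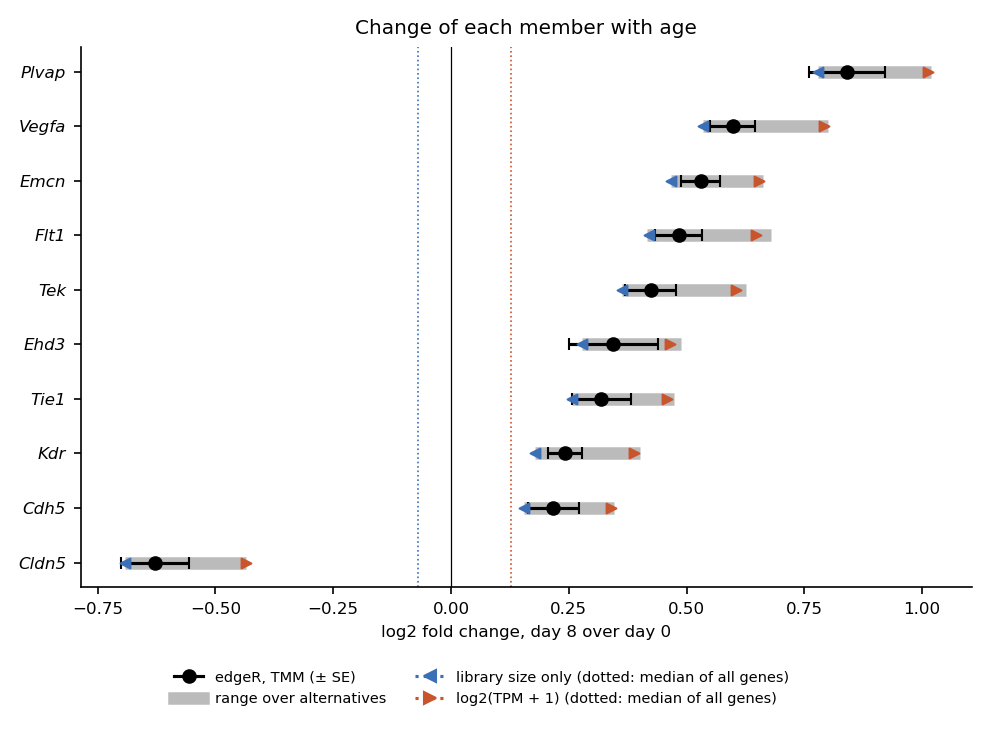
Log2 fold change (day 8 over day 0, horizontal axis) of each gene, as a black point with its SE from edgeR with TMM scaling; grey bars span the values over the alternative fits, triangles mark 2 other scalings, and dotted lines mark the median of all genes under each. The 9 genes that rose lie right of both dotted lines under every fit, and Cldn5 lies left of both.

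The direction of none of the 10 genes depended on the scaling. Scaling by library size alone moved the median of all tested genes to -0.07 and that of the 10 genes to 0.32, and limma on log2(TPM + 1) moved them to 0.13 and 0.54. Cdh5, the gene with the smallest rise, ranged from 0.15 with library size alone to 0.35 with limma on log2(TPM + 0.1). Cldn5 ranged from -0.69 to -0.44.

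The changes were unequal, which ratios within a library show without any scaling between libraries. Relative to Cdh5, Plvap was higher at day 8 by 0.62 ± 0.07 (log2 difference ± SE), Vegfa by 0.38 ± 0.08, Emcn by 0.31 ± 0.04 and Flt1 by 0.26 ± 0.07, while Cldn5 differed by -0.84 ± 0.07. For these 5 ratios the ages did not overlap, and each had an adjusted p of 0.00476 (exact two-sided permutation test over 462 arrangements, whose smallest raw p is 0.00216). In linear terms, Cldn5 went from 0.231 to 0.129 CPM per CPM of Cdh5, and Plvap from 0.597 to 0.920. The ratios of Kdr (0.02 ± 0.07, adjusted p = 0.758), Tie1 (0.10 ± 0.06, adjusted p = 0.196), Tek (0.21 ± 0.08, adjusted p = 0.068) and Ehd3 (0.13 ± 0.11, adjusted p = 0.338) to Cdh5 did not pass the same exact permutation test. Those of Tek and Ehd3 passed without day 0 library 6, at 0.26 and 0.22 (exact permutation test, adjusted p = 0.0249 and 0.0437). Without day 8 libraries 3 to 5, which had the highest fat sums, the Flt1 ratio was 0.13 and the Plvap and Cldn5 ratios were 0.51 and -0.88; none of the 11 ratios passed there (exact permutation test, lowest adjusted p = 0.0786), where 28 arrangements allow a smallest raw p of 0.0357.

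**Figure D3:**
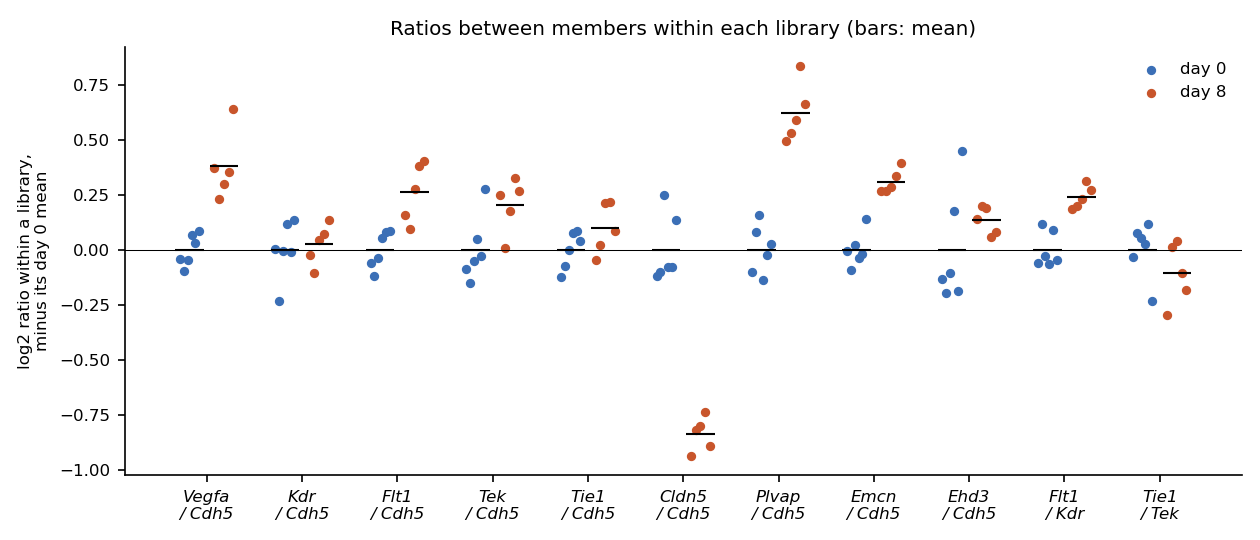
Log2 ratio of CPM between pairs of genes within each library, minus the day 0 mean of that ratio (vertical axis), for 9 genes over Cdh5 and for Flt1 over Kdr and Tie1 over Tek; bars are means. Cldn5 over Cdh5 is 0.84 lower at day 8 and Plvap over Cdh5 is 0.62 higher, while Kdr over Cdh5 overlaps fully between the ages.

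Per transcript length, on the deposited TPM scale, the order of levels was led by Plvap and Vegfa at both ages. At day 0 the mean levels were 74.2 ± 7.35 TPM for Plvap, 63.4 ± 7.62 for Vegfa, 56.2 ± 4.36 for Cdh5, 44.0 ± 3.25 for Emcn and 40.9 ± 4.18 for Cldn5 (SD, n = 6). The 4 receptor genes and Ehd3 were lower, at 25.3 ± 2.94 TPM for Kdr, 25.1 ± 3.20 for Tie1, 20.2 ± 2.66 for Tek, 16.9 ± 3.59 for Ehd3 and 14.6 ± 1.98 for Flt1. Between neighbours in that order the ranges were separate only from Cdh5 to Emcn and from Cldn5 to Kdr, and Kdr and Tie1 kept their order in 4 of 6 libraries. At day 8 Plvap stood at 151 ± 16.4 TPM, Vegfa at 110 ± 10.8, Cdh5 at 71.4 ± 3.71 and Emcn at 69.7 ± 3.63 (SD, n = 5). Cldn5, in the fifth place at day 0, was in the eighth place at day 8 with 29.9 ± 2.55 TPM, behind Tie1 at 34.9 ± 4.18, Kdr at 33.3 ± 2.79 and Tek at 31.3 ± 4.60. The ranges of those 4 genes overlapped from each to the next. Flt1 and Ehd3 were last at 23.5 ± 2.89 and 23.4 ± 1.78 TPM, and which of them was higher differed between libraries.

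**Figure D4:**
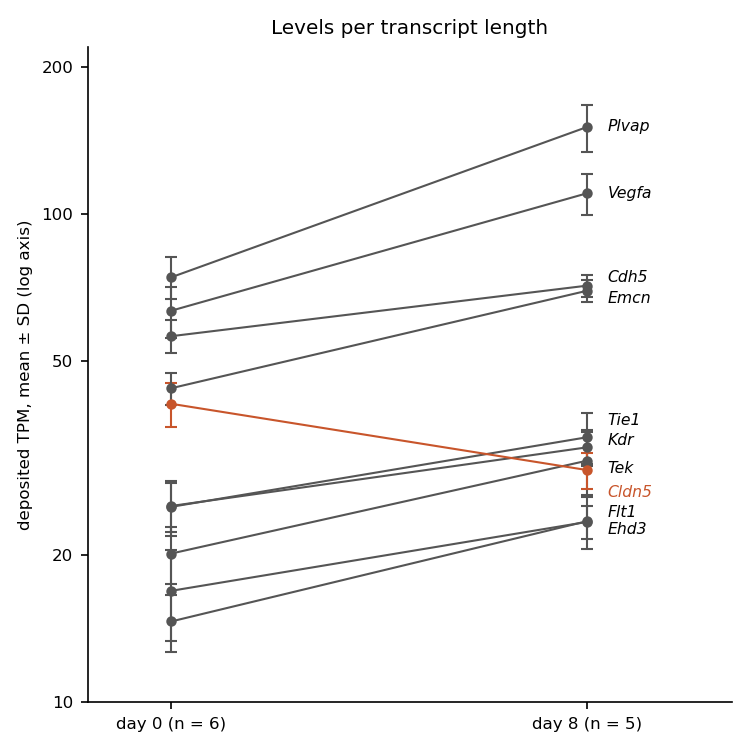
Mean deposited TPM with SD (log axis) of the 10 genes at day 0 (n = 6) and day 8 (n = 5), each gene's means joined by a line. Cldn5, in orange, is the only line that descends, from 40.9 to 29.9 TPM, and it crosses the lines of Kdr, Tie1 and Tek.

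Of the 12 further genes of the VEGF and angiopoietin family, 8 rose, 1 fell and 3 did not pass; the list's median log2 fold change was 0.25. Among ligands, Vegfd, a ligand of the lymphatic VEGF receptor, rose by 0.71 ± 0.10 (log2 fold change ± SE from edgeR, adjusted p = 1.61e-05), and Vegfb, a ligand of VEGFR1, by 0.19 ± 0.06 (edgeR adjusted p = 0.00977), a call lost with library size alone at 0.12. Vegfc was at 0.09 ± 0.11 and Pgf at -0.14 ± 0.20, neither past the test. Among VEGF receptors and co-receptors, Flt4, which encodes VEGFR3, rose by 0.20 ± 0.04 and Nrp2 by 0.77 ± 0.05. Nrp1, the neuropilin that binds VEGF-A beside VEGFR2, was at -0.07 ± 0.04 (edgeR adjusted p = 0.117), and with library size alone it passed as lower at -0.13. On the TIE axis, Angpt2, which encodes the context-dependent ligand of TIE2, rose by 0.87 ± 0.07, and Angpt1, which encodes the activating ligand, by 0.30 ± 0.08 (edgeR adjusted p = 1.97e-08 and 0.00302). Ptprb, which encodes the endothelial phosphatase that dephosphorylates TIE2, rose by 0.85 ± 0.05, and Svep1, an extracellular matrix protein known to bind TIE1, by 1.14 ± 0.09. Angpt4 fell by 1.21 on the log2 scale with an SE of 0.22, from 197 counts over the 6 day 0 libraries to 80 over the 5 day 8 libraries.

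The 22 other endothelium-wide genes moved mostly as Cdh5 did: 14 rose, none fell and 8 did not pass edgeR's test; their median log2 fold change was 0.27. Their summed level was between 1018 and 1130 CPM in the day 0 libraries and between 1307 and 1456 CPM in the day 8 libraries. Adgrl4, an adhesion GPCR of endothelium, rose the most, from 42.9 ± 3.36 (SD, n = 6) to 86.0 ± 7.18 CPM (SD, n = 5), followed by the TGF-beta co-receptor gene Eng, with a log2 fold change of 0.67 ± 0.04 (SE). Egfl7, a secreted endothelial protein and the highest of the list by TPM, rose by 0.59 ± 0.05. With library size alone the list held 13 genes that rose and 1 that fell, and with limma on log2(TPM + 1) 16 and 0; leaving out single libraries gave 13 to 15 that rose and 0 or 1 that fell. At an unadjusted p of 0.05 edgeR also put 0 of the 22 as lower, as did DESeq2 and limma-voom after adjustment.

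Capillary lists of the kidney differed in direction, though bulk values do not show which cells the RNA came from. Of 5 genes of peritubular and vasa recta capillaries beyond Plvap, 4 rose and 1 fell, with a median of 0.53. Slc14a1, the urea transporter of descending vasa recta, rose by 1.38 ± 0.12, Igfbp3 by 0.57 ± 0.05 and the apelin receptor gene Aplnr by 0.53 ± 0.06. The 1 that fell was Npr3, the natriuretic peptide clearance receptor, by 0.50 on the log2 scale with an SE of 0.05; it is named because it stands alone in its direction. Each of the 5 genes of glomerular endothelium beyond Ehd3 fell (list median -0.42), beside the rise of 0.34 in Ehd3; 0 rose at an unadjusted p of 0.05 in edgeR or with DESeq2. Gata5 fell by 1.27 on the log2 scale with an SE of 0.14 and Tbx3 by 0.58 with an SE of 0.06, both transcription factors. Plat, the tissue plasminogen activator, fell by 0.28 with an SE of 0.05, but limma on log2(TPM + 1) gave -0.14 and no call, and 2 of the 5 passed there, with a list median of -0.23. Without day 8 libraries 3 to 5 the list median was -0.27 and 4 of the 5 fell, the call of Nostrin being lost. Podocytes, which face that endothelium, had 3 genes that rose and 3 that fell of 7 tested (median 0.04); Wt1, a transcription factor also of nephron progenitors, fell by 2.01 on the log2 scale with an SE of 0.05.

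**Figure D5:**
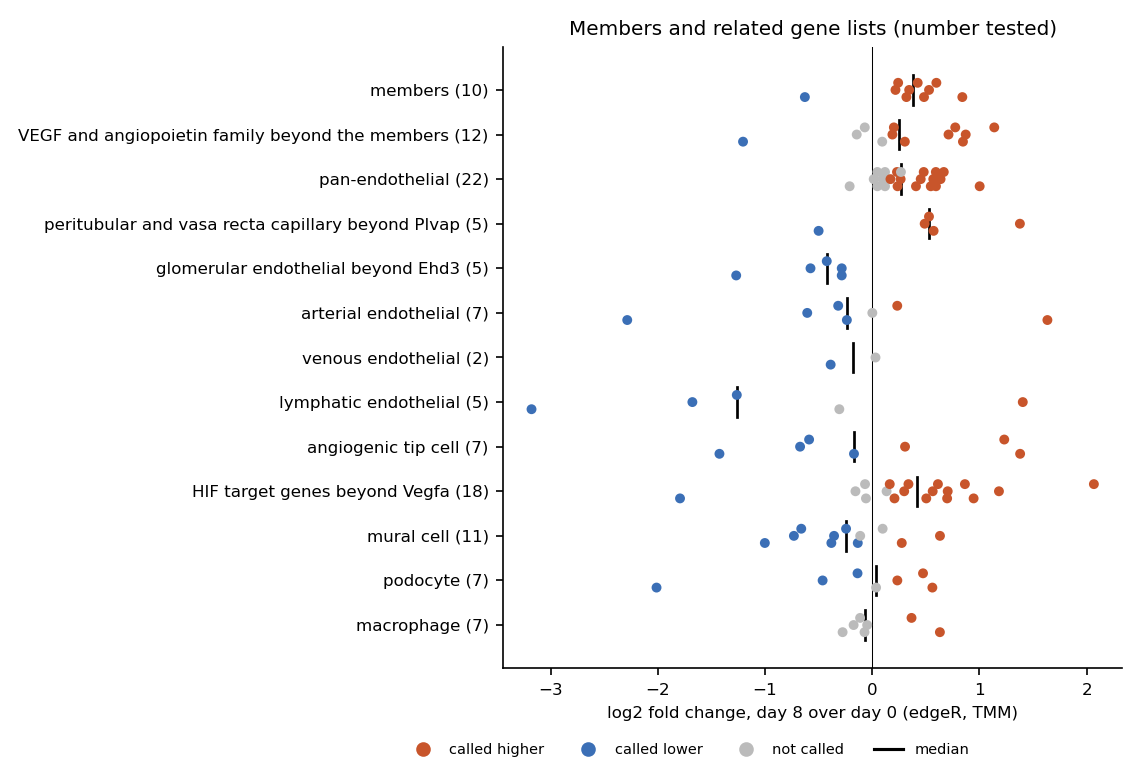
Log2 fold change (day 8 over day 0, edgeR with TMM, horizontal axis) of the 10 genes and of 12 related gene lists, one point per tested gene, coloured by whether it passed as higher, passed as lower or did not pass; black bars are list medians. The endothelium-wide list has a median of 0.27 with 14 genes higher, whereas the glomerular list has a median of -0.42 with 5 lower.

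Genes of other vessel types did not share 1 direction. Of 7 arterial genes, 2 rose and 4 fell (median -0.24), from Hey1, a Notch target, at -2.29 ± 0.07 and Efnb2 at -0.61 ± 0.05 to the elastic-fibre gene Fbln5 at 1.63 ± 0.05; without day 8 libraries 3 to 5, 1 rose and 2 fell, and with limma on log2(TPM + 1) 2 and 2 of 6. Of the 2 venous genes (median -0.18), Nr2f2 fell by 0.39 on the log2 scale with an SE of 0.04, and Ephb4 was at 0.03 ± 0.05. Of 5 lymphatic genes, 1 rose and 3 fell (median -1.26); Reln fell by 3.18 with an SE of 0.14 and Lyve1 fell by 1.68 with an SE of 0.19, while Prox1, named because it was the 1 that rose, was at 1.40 ± 0.07. With limma on log2(TPM + 1) the lymphatic median was -0.64, with 1 that rose and 2 that fell of 4 tested. Of 7 tip-cell genes, 3 rose and 4 fell (median -0.17), with Apln at 1.38 ± 0.10, Cxcr4 at -1.43 ± 0.08 and Unc5b at -0.59 ± 0.05. Plxnd1, a semaphorin receptor, was at -0.17 ± 0.05. With limma on log2(TPM + 1) it was at 0.07 and did not pass (limma adjusted p = 0.518), and 2 of the 7 fell there. Many genes of these lists are also expressed outside endothelium in the kidney.

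Vegfa is a known target of the hypoxia-inducible factors, and of 18 further tested HIF targets 13 rose and 1 fell; their median log2 fold change was 0.42. Ndrg1, the highest of the list by TPM, rose by 1.18 ± 0.10, the carbonic anhydrase gene Car9 by 2.07 ± 0.33 and the glycolytic gene Ldha by 0.34 ± 0.05. The hexokinase gene Hk2 fell by 1.79 on the log2 scale with an SE of 0.16. Epo had 0 counts over the 6 day 0 libraries and 24 over the 5 day 8 libraries, and was not tested. Of the 4 HIF subunit genes (median 0.17), Epas1 rose by 0.53 ± 0.04 and Hif1a by 0.34 ± 0.05, Arnt was at 0.00 ± 0.04, and Hif3a fell by 2.96 with an SE of 0.21. Without day 8 libraries 3 to 5, 10 of the 18 targets rose and 1 fell. Car9 was low, with 49 counts over the 6 day 0 libraries and 192 over the 5 day 8 libraries. Whether these factors had a part in the rise of Vegfa was not tested.

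Markers of other cells that could move with the endothelial values were counted as well. Of 11 mural-cell genes, 2 rose and 7 fell (median -0.24), or 3 and 4 (median -0.11) with limma on log2(TPM + 1). The 2 that rose, named for that reason, were Rgs5 at 0.63 ± 0.07 and Pdgfrb at 0.28 ± 0.04 (edgeR adjusted p = 5.8e-06 and 5.82e-05). Among those that fell were Des at -0.73 ± 0.10, Acta2 at -0.36 ± 0.07 and Abcc9, which went from 70.3 ± 11.6 (SD, n = 6) to 35.1 ± 5.57 CPM (SD, n = 5). Tagln, a smooth-muscle gene, was at 0.10 ± 0.06 (edgeR adjusted p = 0.213) and passed as higher with limma on log2(TPM + 1) at 0.24. Leaving out single libraries gave 5 to 8 mural genes that fell, with 5 without day 8 library 5. The sum of the 11 genes was between 1258 and 1477 CPM at day 0 and between 1259 and 1410 CPM at day 8. Of 7 macrophage genes, 2 rose and none fell with edgeR or DESeq2 (median -0.07), with 1 lower at an unadjusted p of 0.05. Of 8 red-cell genes, 1 rose and 1 fell (median 0.08), and of 4 tested platelet genes, 1 fell (median -0.02). Of 6 liver genes, 0 passed edgeR's test even unadjusted and 1 fell with DESeq2 (median -1.94). Both tested muscle genes fell (median -3.74), but that count rests on the filter and on single libraries. It was 6 with DESeq2, 4 without a filter on low counts and 0 with the filter on CPM. Leaving out 1 library gave 1 without any day 0 library other than library 5, 5 without day 8 library 3 and 4 without any other day 8 library. All 5 tested fat genes rose (median 3.96), while without day 8 libraries 3 to 5, 1 of 4 tested rose. The medians of the tip-cell, podocyte, macrophage, red-cell and platelet lists changed sign under at least 1 of the other scalings. The part of these markers in the endothelial values was not tested beyond the fits without day 8 libraries 3 to 5 given above.

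Within ages, the genes varied together only in part. After subtracting each age's mean of log2 CPM, Tie1 and Emcn followed the mean of the other endothelial genes most closely over the 11 libraries (Pearson r = 0.728 and 0.723), and Kdr, Ehd3 and Vegfa least (r = 0.163, 0.135 and 0.063). These r values describe libraries that share depth and scaling and carry no p. Among 11049 genes with a mean of at least 10 CPM, the 10 most like the mean of the 9 endothelial genes were Dennd5a, Vgll4, Lasp1, Slc39a1, Pdhb, Cyp2u1, Cdc42, Tinagl1, Serinc3 and Vasp. For Dennd5a, Pearson r was 0.966 and Spearman rho 0.964, and for Vasp 0.923 and 0.882. The 21 endothelium-wide genes that reached that level had a median r of 0.535, beside 0.124 over all 11049 genes. Of all 11049 genes, 84.0% lay below that endothelium-wide median. The 10 named genes are the highest values out of 11049 over 11 libraries, and none of them is in the related lists.

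The promoter windows of the RefSeq table matched 8 of the 10 genes by symbol, and Cdh5 and Plvap were not matched. Those of Flt1, Tek, Cldn5 and the first Vegfa start are shown above. Those of Kdr, Tie1, Emcn, Ehd3 and a second Vegfa start were counted but not shown, and each overlaps an annotated exon of its own gene. The 6 motifs were counted on both strands over 250 bases. The ETS core GGAA was found in 7 of the 8 genes, all but Cldn5, and in 93.4% of the 32851 windows of the table. The longer AGGAAG, which contains the core, was found in Emcn, Flt1 and Tie1, 3 of the 8, and in 29.5% of all windows. ACAAT, a SOX core, was found in Emcn and Tek and in 27.7% of windows. ACGTG, a HIF core, was found in the window of the second Vegfa start, within an annotated Vegfa exon, and in 16.6% of windows. TATAAA was found in Flt1 and in 12.4%. The letters AGATAA were found in Vegfa and in 3281 of the 32851 windows. A match describes these letters and is not a binding site.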

How the data were processed

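Kidney RNA of 6 day 0 and 5 day 8 samples was analysed, grouped by the age label. Per the labels' protocols, a NucleoSpin miRNA kit gave the RNA and Illumina's stranded, rRNA-depleting ligation kit the libraries. Per the submitters' processing notes, FastQC, fastp, DRAGEN and Picard were used with build mm10; the tool that made the counts, its gene annotation and its use of strand are not given in the sources used here. The authors deposited estimated counts, which were rounded before testing, and TPM values, which the authors scaled for transcript length and library total. From these, edgeR 4.0.16 in R 4.3.3 fitted age alone (TMM, filterByExpr, robust quasi-likelihood) with Benjamini-Hochberg adjustment at 0.05; 18763 genes were tested. The SE of a log2 fold change was taken as its size over the square root of the quasi-likelihood F. The fit was also tested on simulated data. Ratios used CPM + 0.5 and exact permutation of libraries.

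All 25 pairs of same-age libraries differed by more than sampling noise (chi-square per degree of freedom, 4.64 to 41.6), and none was treated as a duplicate. Library numbers only name libraries, and age cannot be set apart from any batch, which the labels do not give. The 10 genes and the 18 related lists were chosen with earlier results of these data known. Named from each list were the 2 genes past the test that changed most and the 2 of highest mean TPM; the VEGF and angiopoietin list is given in full. Of the genes so chosen, some are left out for brevity and 1 is not reported here. Alternatives were other scalings (RLE, upper quartile, library size), DESeq2 1.42.0, limma 3.58.1 on counts (voom) and on log2(TPM + 1) or log2(TPM + 0.1), other filters, Xist as a covariate, a threshold of 0.01 and leaving out libraries. Promoters are from RefSeq (GRCm38.p6) and positions from GENCODE vM21.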

Additional observations from a re-analysis of the deposited data

How the results depend on the processing

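All 10 genes kept their direction and their call in every alternative run, with adjusted p of 0.0229 at most (Ehd3). The number of genes called lower over the whole table was 5646 with edgeR and 2477, 2474 and 2830 with limma on log2(TPM + 1), on log2(TPM + 0.1) and on log2(TPM + 1) without a filter. The share of calls that were higher was 47.8% with edgeR, 68.7% with log2(TPM + 1) and 39.5% with library size alone. Plxnd1 went to 0.073, 0.074 and 0.073 under the 3 TPM settings, passing limma's test in none (adjusted p = 0.518, 0.517 and 0.58). The medians of all genes there were 0.127, 0.145 and 0.022. Leaving out single libraries gave 0.175 to 0.26 for the ratio of Tek to Cdh5 and 0.093 to 0.223 for that of Ehd3 to Cdh5, past the test only without day 0 library 6. Without day 8 libraries 3 to 5 the ratios to Cdh5 were 0.30 for Vegfa, 0.126 for Flt1 and -0.878 for Cldn5. They were 0.514 for Plvap and 0.266 for Emcn, and that of Flt1 to Kdr was 0.191. None of these ratios passed there, where 28 arrangements allow a smallest raw p of 0.0357 in the exact permutation test. For the other changes the cause was not tested. No paired analysis was possible because the labels give the ages no shared replicate numbers. Depth did not limit the 10 genes, which had at least 541 counts in each library, but it limits Epo, Car9 and the fat and muscle lists.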
